A study of Homo sapiens with 4 samples.

Results

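The genes described here are 31 genes of the p53 response and the cyclin-dependent kinase (CDK) inhibitor families, chosen by symbol from 23228 gene rows. They were followed in Daoy cells, an established human medulloblastoma line, transduced with lentivirus so as to carry stably a control shRNA or a PELP1 shRNA, with 2 libraries for each. PELP1 encodes a scaffold protein that acts as a nuclear receptor coregulator and works in ribosome maturation. The title of the series asks about medulloblastoma progression and the NF-κB pathway, and the only contrast is PELP1 shRNA against control shRNA. Cells of both groups were grown in the same serum-containing medium, and no other agent is named. The labels do not give the number of shRNA sequences or clones behind each group, nor whether the duplicates came from separate cultures, so the spread behind every p-value may be technical. In RNA from whole cultures, fewer cells that express a gene and less of its RNA per cell cannot be told apart.

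p53 is a transcription factor that is stabilised after DNA damage and other stress and then switches on genes for growth arrest, DNA repair and cell death. Among its best known targets are CDKN1A, whose product p21 binds and blocks cyclin-CDK complexes, and MDM2, whose product in turn marks p53 for destruction. CDK inhibitors fall into the CIP/KIP family (CDKN1A, CDKN1B, CDKN1C), which acts on several cyclin-CDK complexes, and the INK4 family (CDKN2A to CDKN2D), which binds CDK4 and CDK6.

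PELP1 itself had 168 and 185 CPM (counts in a gene scaled to a common library size with TMM factors) in the control libraries and 55.6 and 49.7 CPM in the PELP1 shRNA libraries. It stood at 29.8% of control (edgeR quasi-likelihood test, false discovery rate, FDR = 1.54e-33). The libraries held 24052542 to 29221640 counts in genes. Of 9 markers of the cerebellar granule lineage, ATOH1, NEUROD1 and BARHL1 had under 10 counts in every library, while ZIC1, ZIC2, PAX6, OTX2 and GLI2 had over 100. Of the 6 that were tested, ZIC2, PAX6, GLI1 and OTX2 were higher with the PELP1 shRNA and GLI2 was lower (−0.71 on the log2 scale, FDR = 2.16e-13). GLI1 had only 11 and 24 counts in the control and 40 and 32 in the PELP1 shRNA libraries. Over all tested genes, 58.1% passed an FDR of 0.05 in either direction. Of 6 markers of other cell types, 3 (PECAM1, EPCAM, MBP) were higher with the PELP1 shRNA and none of the others passed the threshold. These 3 had few reads. In the control and then the PELP1 shRNA libraries, PECAM1 had 11 and 7 against 57 and 49 counts. EPCAM had 9 and 3 against 21 and 24, and MBP 54 and 68 against 286 and 152. The summed level of the 6 markers was 99.2 and 72.8 CPM in the control libraries and 97.7 and 76.9 CPM in the PELP1 shRNA libraries. GFAP, the largest source of that spread, had 869 and 304 counts with the control shRNA and 840 and 286 with the PELP1 shRNA. The leukocyte marker PTPRC had 5 to 9 counts. The macrophage marker CD68 was well read, with 1369 and 1485 counts in the control and 1735 and 1603 in the PELP1 shRNA libraries. None of these 6 was at 0 in every library, and the part of either marker list in the results below was not tested.

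Matches to the p53 response element near these genes are shown because many of the members are known as p53 targets. Binding of p53 was not measured here. A p53 response element is made of a pair of half-sites of 10 bases, each with a core that starts with C and ends with G. In GRCh37, the assembly that hg19 uses, windows of 2500 bases to either side of the start site were searched for a pair of half-sites with no spacer. The C and G of both cores were required and up to 2 mismatches were allowed elsewhere. The pattern reads the same on both strands. Such a match lay in 11 of 31 members (35.5%) and in 751 of 19881 windows of protein-coding genes (3.78%). With at most 1 mismatch the figures were 6 members (19.4%) and 0.52% of windows. Since many of the members were picked as known p53 targets, this share describes the list and is not evidence for it. Not shown are the matches of GADD45B, DDB2 and RRM2B and a second match of CCNG1. Matches of 8 members are written along the strand of the gene, with the 4 core bases of each half-site in capitals. They lie at chr6:36644226-36644245 for CDKN1A, chr1:68152458-68152477 for GADD45A, chr1:203272770-203272789 for BTG2 and chr5:162864932-162864951 for CCNG1. Those of the other 4 lie at chr5:57758101-57758120 for PLK2, chr3:178787976-178787995 for ZMAT3, chr15:89164537-89164556 for AEN and chr12:69202703-69202722 for MDM2.
CDKN1A: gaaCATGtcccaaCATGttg
GADD45A: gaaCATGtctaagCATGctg
BTG2: acgCATGttcaggCATGcat
CCNG1: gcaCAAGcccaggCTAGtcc
PLK2: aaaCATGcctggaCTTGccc
ZMAT3: aaaCAAGtccagaCATGcct
AEN: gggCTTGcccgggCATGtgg
MDM2: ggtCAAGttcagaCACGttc
PLK2 and ZMAT3 had 0 mismatches, CCNG1 and GADD45A 1, and the other 4 had 2. The CDKN1A element lies upstream of the main start site, where it straddles the annotated 5′ end of an alternative transcript, and that of GADD45A lies in an intron. Members with a match did not share a direction. At an FDR of 0.05, 58.1% of all tested genes were called, 28.6% higher and 29.5% lower. Of the 11, 5 rose (PLK2, ZMAT3, CCNG1, AEN, BTG2), 3 fell (GADD45A, CDKN1A, GADD45B) and 3 did not pass the threshold (MDM2, DDB2, RRM2B). Of 18 tested members without a match, 7 rose, 6 fell and 5 did not pass.

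The members moved in both directions under the PELP1 shRNA. Of the 31, 29 had enough reads to be tested, and CDKN2A and CDKN2B did not. Of the 29, 12 rose, 9 fell and 8 did not pass an FDR of 0.05. That is 72.4% called, against the background of 58.1% of all 14972 tested genes. The median log2 fold change was 0.11 over the tested members and 0.00 over all tested genes, and the median absolute change was 0.34 against 0.26. Most changes were modest. A called change of at least 1.5-fold was seen in 8 members (background 18.6%), and one of at least 2-fold in 3 members (GADD45A, GADD45G and BTG2; background 8.42%). Against a 1.5-fold change (edgeR glmTreat, background 9.63%), 5 members passed. BTG2 and CCNG1 were higher (background 4.74%), and CDKN1A, GADD45A and GADD45G were lower (background 4.9%). The 2 groups of libraries did not overlap in 25 of the 29 members, against 77.7% of all tested genes. Of those members, 14 lay higher (background 39%) and 11 lower (background 38.7%).

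**Figure D1:**
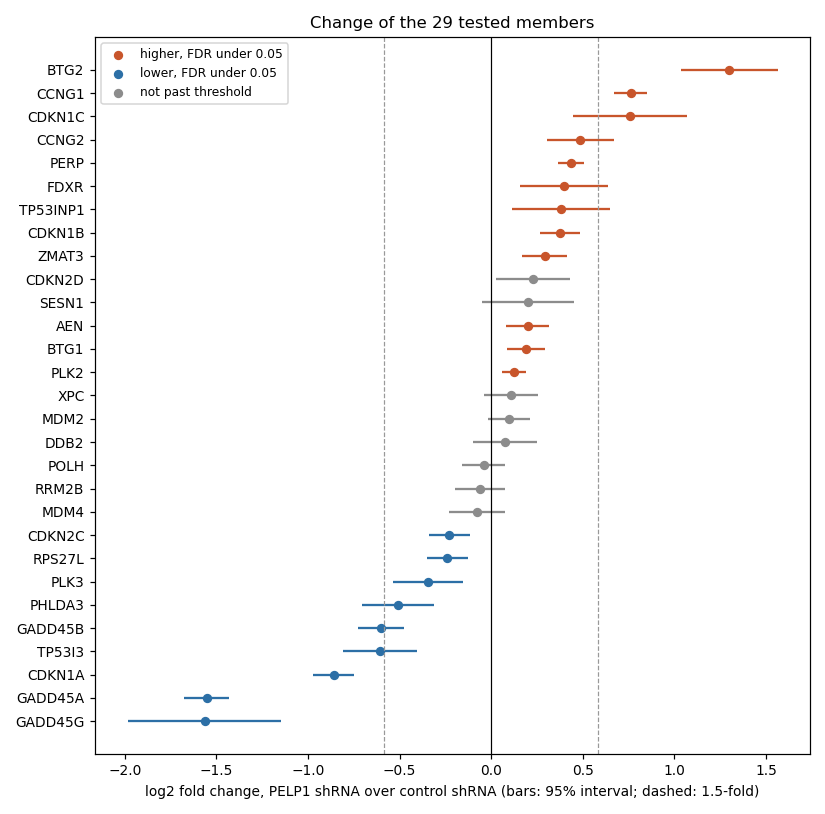
Log2 fold change (x axis, PELP1 shRNA over control shRNA) of the 29 tested members, sorted, with bars for the 95% interval and dashed lines at a 1.5-fold change. Orange members were higher and blue members lower at an FDR of 0.05, and grey members did not pass. GADD45G and GADD45A stand at the lower end and BTG2 at the upper end.

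**Figure D2:**
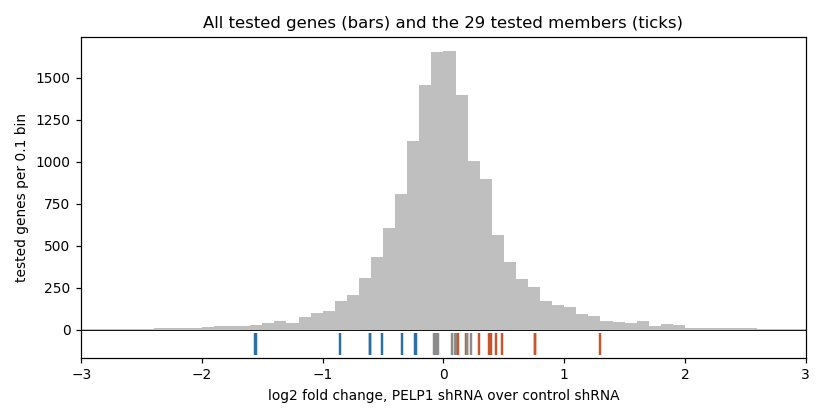
Number of tested genes per 0.1 of log2 fold change (bars, x axis from −3 to 3, beyond which 83 genes lie) with the 29 tested members as ticks below, orange for higher, blue for lower and grey for not past the threshold. The ticks lie on both sides of 0.

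The inhibitors of p53 did not pass the threshold. MDM2, the ubiquitin ligase that targets p53, had 52.2 and 47.8 CPM with the control shRNA and 52.0 and 54.7 CPM with the PELP1 shRNA. These groups overlapped, and the log2 fold change was 0.10 with a 95% interval from −0.02 to 0.21 (FDR = 0.163). The value was 0.16 without control replicate 1 (adjusted p = 0.0521) and 0.03 without control replicate 2 (adjusted p = 0.736). Scaled with upper-quartile factors or by library size alone MDM2 was called higher (0.15, adjusted p = 0.0263, and 0.19, adjusted p = 0.00477). MDM4, a relative of MDM2 that binds and restrains p53, had 24.8 and 23.4 CPM in the control and 23.03 and 22.5 CPM in the PELP1 shRNA libraries (log2 fold change −0.08, 95% interval −0.23 to 0.07, FDR = 0.4). Genes on the other strand overlap 918 exonic bases of MDM2. The strand setting of the counting is not given in the sources used here, so reads from such overlaps cannot be told apart.

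Within the CIP/KIP family, CDKN1A fell while CDKN1B and CDKN1C rose. CDKN1A lies on chromosome 6 (36644237 to 36655114, plus strand). It had 73.8 and 78.2 CPM in the control and 41.4 and 42.4 CPM in the PELP1 shRNA libraries, so both PELP1 shRNA libraries were well below both controls. This was 55.1% of control, a log2 fold change of −0.86 ± 0.06 (SE, FDR = 3.84e-21). CDKN1B on chromosome 12 (12838432 to 12875303, plus strand) encodes p27, a CDK inhibitor best known for holding cells in quiescence. Its levels were 51.1 and 49.7 CPM in the control and 62.7 and 68.1 CPM in the PELP1 shRNA libraries (0.38 ± 0.06, SE, FDR = 5.09e-08). CDKN1C, the imprinted gene of p57, was far less abundant, at 3.25 and 3.19 CPM against 5.77 and 5.08 CPM, and rose 1.69-fold (FDR = 4.25e-05). For neither CDKN1B nor CDKN1C did the 2 groups overlap, and both lay above the controls, as 39% of all tested genes did. Of the exonic bases of CDKN1A, 146 lie antisense to the noncoding gene DINOL.

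The balance of the family therefore differed within each library, a quantity that no choice of scaling can move. Reads of CDKN1B per kilobase of its main transcript were 0.61 and 0.56 times those of CDKN1A in the control libraries. In the PELP1 shRNA libraries the same ratio was 1.33 and 1.41. Which of the pair was the more abundant depends on the length used. With all annotated exons of each gene as its length, the ratio was 0.22 and 0.21 in the control and 0.49 and 0.52 in the PELP1 shRNA libraries, below 1 in all 4. On the scale of CPM per kilobase of the main transcript, CDKN1A had a mean of 35.9 and CDKN1B one of 20.9 in the control, against 19.8 and 27.1 with the PELP1 shRNA. The ratio of CDKN1C to CDKN1A rose from 0.05 in both controls to 0.17 and 0.14. These ratios were not tested, since a two-sided exact permutation test of 2 against 2 libraries cannot give a p below 0.333.

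The INK4 family was split between 2 genes with almost no reads and 2 that were well read. CDKN2A, which encodes p16 and p14ARF, had 1 count in each of the 4 libraries. CDKN2B, the p15 gene, had 1 and 3 counts in the control and 2 and 2 in the PELP1 shRNA libraries. Here 1 count was worth 0.0331 to 0.0428 CPM, so no change of either gene could be seen at this depth.

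The lack of reads was shared by the genes matched around them on chromosome 9. From KIAA1797, the older symbol of FOCAD, to ELAVL2 (20658308 to 23826335), 28 deposited gene rows were matched by symbol to the annotation. Older symbols of other genes in this stretch were not looked up, so some of its rows may be missing. KIAA1797, at one end, had 185 and 181 counts in the control and 207 and 189 in the PELP1 shRNA libraries. The other 27 matched rows had at most 8 counts summed over all libraries, and 20 of them had 0. MTAP, a broadly expressed gene of methionine salvage that lies next to CDKN2A, had 2 and 0 counts in the control and 3 and 0 in the PELP1 shRNA libraries. KLHL9, an adaptor gene of a ubiquitin ligase, had 0 and 2 against 1 and 1. CDKN2B-AS1, the antisense noncoding gene of the locus, and ELAVL2, a neuronal RNA-binding protein gene, had 1 count each over the 4 libraries. DMRTA1 and IFNA1 had 0. Many of the 27 rows are interferon genes, which are silent in most cells at rest. The DNA of the region was not measured in this series.

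**Figure D3:**
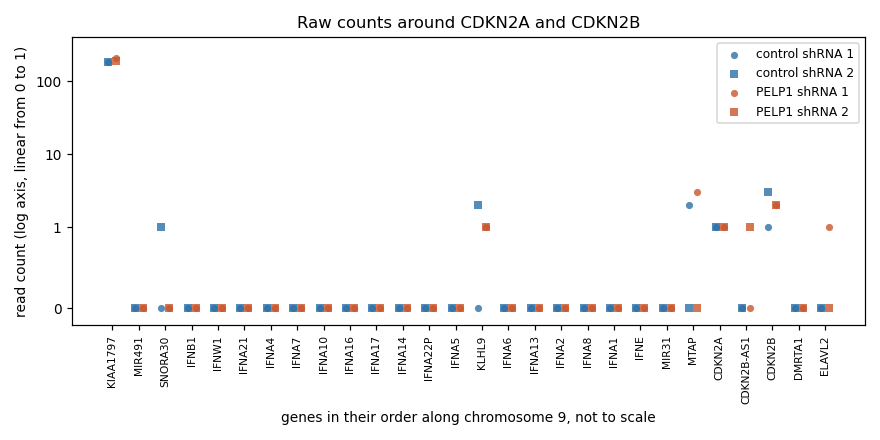
Raw read counts (y axis, log scale, linear from 0 to 1) of 28 genes in their order along chromosome 9, not to scale, in the 4 libraries (blue control shRNA, orange PELP1 shRNA; circles replicate 1, squares replicate 2; equal values lie on top of each other). KIAA1797 lies at 181 to 207 counts, and no other gene shown passes 3 counts in a library.

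CDKN2C, the p18 gene, had 55.8 and 59.0 CPM in the control and 48.2 and 49.9 CPM in the PELP1 shRNA libraries, a small fall (−0.23 ± 0.06, SE, FDR = 0.000472). It stood at −0.14 with scaling by library size alone, and another gene runs antisense over 617 bases of its exons. CDKN2D, the p19 gene, had 10.1 and 10.7 CPM against 12.1 and 12.3 CPM, without overlap, and its log2 fold change of 0.23 missed the threshold (FDR = 0.0548). It passed when scaled by library size alone (0.32, adjusted p = 0.00625) or with upper-quartile factors (0.28, adjusted p = 0.0169), when only genes with 5 CPM or more in 2 libraries were kept (0.24, adjusted p = 0.0355), and with crossed replicate numbers as a block (0.23, adjusted p = 0.0371).

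All 3 GADD45 genes fell. Their products are small stress-induced proteins that bind MAP3K4, PCNA and p21 and take part in growth arrest and DNA repair. GADD45A on chromosome 1 (68150884 to 68154017, plus strand) is the best known p53 target of the family. It had 71.8 and 72.9 CPM in the control and 23.2 and 26.2 CPM in the PELP1 shRNA libraries, a log2 fold change of −1.55 ± 0.06 (SE, FDR = 1.9e-31). GADD45G on chromosome 9 (92219927 to 92221470, plus strand) changed about as much at a low level. Its 94 and 92 counts in the control and 41 and 33 counts with the PELP1 shRNA correspond to 4.02 and 3.58 against 1.36 and 1.197 CPM (−1.56 ± 0.21, SE, FDR = 4.23e-09). GADD45B, which is known as an NF-κB and TGF-β responsive gene, fell less. It had 47.5 and 47.8 CPM in the control and 32.3 and 30.3 CPM in the PELP1 shRNA libraries (−0.60 ± 0.06, SE, FDR = 1.58e-12). In none of the 3 did the groups of libraries overlap, and 38.7% of all tested genes lay lower without overlap. GADD45A and GADD45G also passed against a 2-fold change (adjusted p = 1.76e-11 and 0.039, edgeR glmTreat). The share of all tested genes that passed this test was not taken. Per kilobase, GADD45A had 1.53 and 1.55 times the reads of GADD45B in the control libraries and 0.73 and 0.87 times in the PELP1 shRNA libraries, so the order of the pair turned over. With all annotated exons as length it did so too, from 1.68 and 1.69 to 0.80 and 0.96.

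Both BTG genes rose, by very different amounts. BTG1 and BTG2 encode antiproliferative proteins that bind the CCR4-NOT deadenylase, and BTG2 is the better known p53 target. BTG2 on chromosome 1 (203274619 to 203278730, plus strand) had 4.07 and 3.73 CPM in the control and 9.41 and 9.76 CPM in the PELP1 shRNA libraries, a 2.46-fold rise (log2 fold change 1.30 ± 0.13, SE, FDR = 6.56e-13). This was the largest rise among the members tested. BTG1 was at 60.1 and 62.1 CPM against 70.3 and 69.2 CPM (0.19 ± 0.05, SE, FDR = 0.00168). Its exons overlap those of another gene by 503 bases on its own strand and by 274 bases on the opposite one. The ratio of BTG2 to BTG1 per kilobase went from 0.11 and 0.10 to 0.23 and 0.24.

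**Figure D4:**
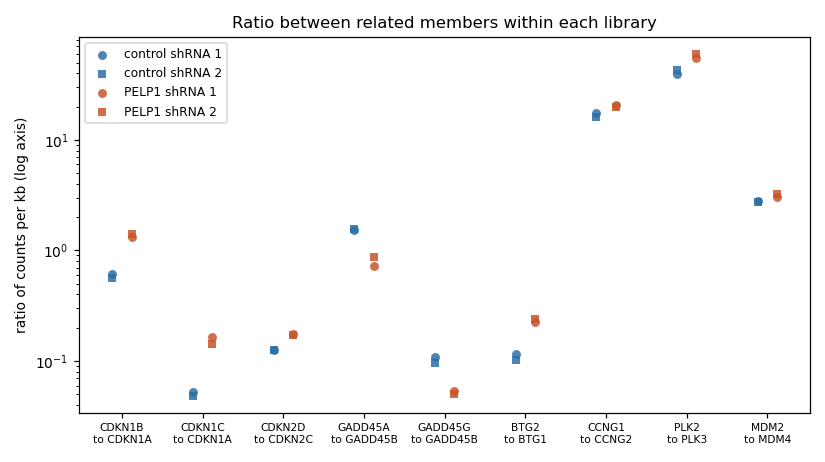
Ratio of reads per kilobase (y axis, log scale) between 9 pairs of related members within each library (blue control shRNA, orange PELP1 shRNA; circles replicate 1, squares replicate 2). Lengths are those of the canonical transcripts, with which the ratio of CDKN1B to CDKN1A passes from below 1 to above 1, and that of GADD45A to GADD45B from above 1 to below 1.

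Cyclin G genes rose and the Polo-like kinase genes moved apart. CCNG1 on chromosome 5 (162864575 to 162873157, plus strand) encodes cyclin G1, which recruits the phosphatase PP2A to MDM2. It had 98.2 and 92.3 CPM in the control and 158 and 165 CPM in the PELP1 shRNA libraries (0.76 ± 0.04, SE, FDR = 3.5e-23). CCNG2, an unconventional cyclin linked to cell cycle exit, had 12.6 and 12.9 CPM against 17.2 and 18.5 CPM and rose 1.40-fold (FDR = 7.83e-06). PLK2, a stress-responsive kinase of centriole duplication, was the most abundant member per kilobase in every library. It had 762 and 756 CPM in the control and 825 and 827 CPM in the PELP1 shRNA libraries, a rise of 1.09-fold (FDR = 0.00147). Its log2 fold change of 0.12 stood at 0.21 when scaled by library size alone. PLK3, a kinase of the DNA damage and hypoxic responses, had 16.3 and 14.7 CPM in the control and 12.7 and 11.7 CPM in the PELP1 shRNA libraries (−0.34 ± 0.10, SE, FDR = 0.0018). The groups did not overlap for any of these 4 genes, as was so for 77.7% of all tested genes.

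Genes of DNA repair and nucleotide supply did not pass the threshold. Of 4 genes, 0 were called in edgeR, against 58.1% of all tested genes. In edgeR 0 had an unadjusted p under 0.05, and DESeq2 and limma-voom called 0 as well. XPC, the damage sensor of global nucleotide excision repair, had 27.6 and 24.4 CPM against 26.9 and 29.03 CPM. DDB2, the partner of that pathway for ultraviolet damage, had 15.8 and 17.4 CPM against 17.9 and 17.1 CPM. RRM2B, the p53-inducible subunit of ribonucleotide reductase, and POLH, the translesion polymerase eta, stood at −0.06 and −0.04 on the log2 scale. POLH had 47.84 and 47.22 CPM in the control and 47.16 and 45.14 CPM in the PELP1 shRNA libraries. Its groups did not overlap and lay lower with the PELP1 shRNA, as in 38.7% of all tested genes. The 95% intervals were −0.04 to 0.26 for XPC, −0.10 to 0.25 for DDB2, −0.20 to 0.08 for RRM2B and −0.16 to 0.08 for POLH. XPC was called higher when scaled by library size alone (0.20, adjusted p = 0.0192), and antisense genes cover 1140 bases of its exons.

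The 3 genes of redox balance and metabolism diverged. TP53I3 on chromosome 2 (24300303 to 24308731, minus strand), a quinone oxidoreductase gene induced by p53, had 13.6 and 13.9 CPM in the control and 9.11 and 8.89 CPM in the PELP1 shRNA libraries. It fell to 65.6% of control (FDR = 8.41e-07). FDXR, the mitochondrial ferredoxin reductase, had 6.33 and 7.04 CPM against 8.82 and 8.82 CPM and rose 1.32-fold (FDR = 0.00399). DESeq2 did not call it (adjusted p = 0.0945), nor did edgeR once control replicate 1 was left out (adjusted p = 0.0596). SESN1, a sestrin that dampens mTORC1, had 6.46 and 6.26 CPM against 7.13 and 7.47 CPM, a log2 fold change of 0.20 with an interval from −0.05 to 0.45 (FDR = 0.179). It passed when scaled by library size alone (0.29, adjusted p = 0.0457).

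All 6 effectors of growth control and cell death passed the threshold, which 58.1% of all tested genes did, with 4 higher and 2 lower. None of the 6 passed against a 1.5-fold change. PERP, a desmosomal membrane protein and p53 effector of apoptosis, was the most abundant of them and had 243 and 241 CPM in the control and 325 and 329 CPM in the PELP1 shRNA libraries (0.43 ± 0.04, SE, FDR = 4.16e-16). ZMAT3, an RNA-binding regulator of splicing, had 37.01 and 37.2 CPM against 46.9 and 43.8 CPM (0.29 ± 0.06, SE, FDR = 6.53e-05). AEN, a nuclease of apoptosis, had 41.3 and 41.7 CPM against 48.4 and 46.8 CPM (0.20 ± 0.06, SE, FDR = 0.00412). These 3 rises were small, and the call of AEN was lost when PELP1 shRNA replicate 1 was left out (adjusted p = 0.0575).

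TP53INP1, a promoter of autophagy and of p53 phosphorylation, had 5.91 and 4.82 CPM in the control and 7.06 and 6.86 CPM in the PELP1 shRNA libraries (0.38 ± 0.14, SE, FDR = 0.0134). Its value rested on single libraries. Without control replicate 2 it was 0.24 (adjusted p = 0.246), without control replicate 1 it was 0.53, and the call was also lost in DESeq2 (adjusted p = 0.178) or when PELP1 shRNA replicate 1 was left out (adjusted p = 0.0646). PHLDA3, a repressor of AKT, fell from 15.02 and 14.5 CPM to 10.9 and 9.83 CPM (−0.51 ± 0.10, SE, FDR = 1.51e-05), and a second gene of its strand shares 598 bases of its exons. RPS27L, a ribosomal protein paralogue that binds MDM2, had 59.8 and 57.3 CPM against 50.5 and 48.7 CPM (−0.24 ± 0.06, SE, FDR = 0.000254). It stood at −0.15 when scaled by library size alone.

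**Figure D5:**
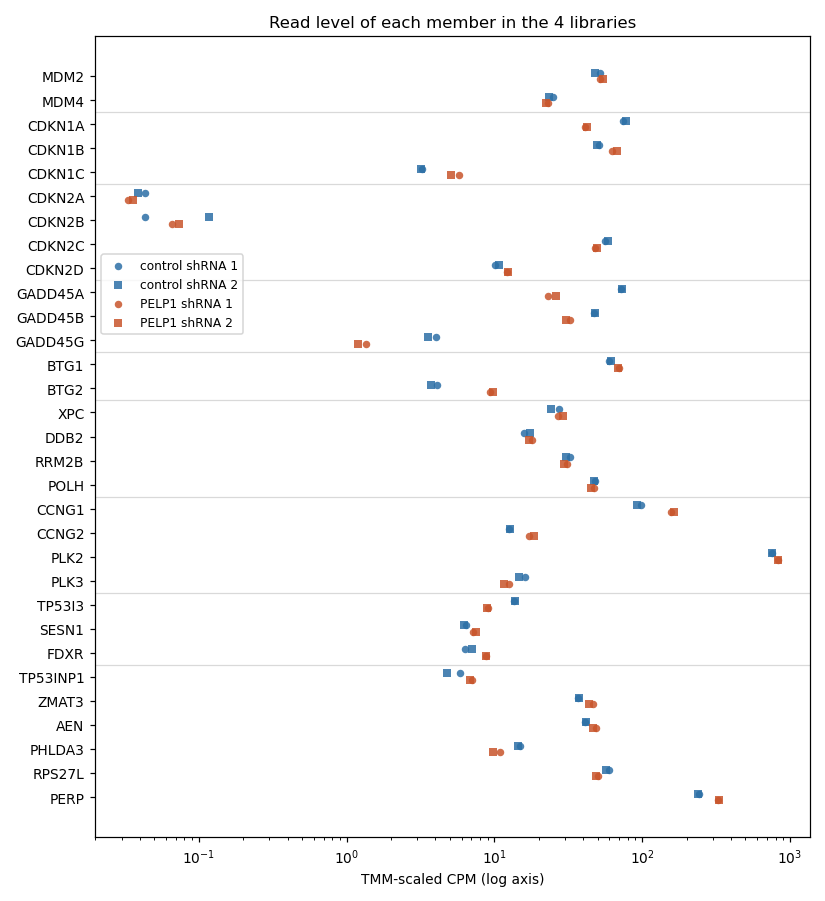
TMM-scaled CPM (x axis, log scale) of all 31 members in the 4 libraries (blue control shRNA, orange PELP1 shRNA; circles replicate 1, squares replicate 2), grouped by role between grey lines. CDKN2A and CDKN2B lie near the value of 1 count, and PLK2 and PERP at the upper end.

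Replicates lay close together beside these changes. The median absolute difference between the 2 libraries of a group over the tested members was 0.06 on the log2 scale in the control and 0.06 with the PELP1 shRNA. If a biological coefficient of variation of 10% was assumed in place of the estimated 2.99%, 12 of the 21 calls were kept. At 20%, 4 were kept, those of CDKN1A, GADD45A, GADD45G and BTG2. Of all 14972 tested genes, 2187 were called higher and 2176 lower at 10%, and 685 higher and 640 lower at 20%.

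Among 19 genes of p53 relatives, kinases and cofactors, 6 rose and 5 fell (57.9% called against 58.1% of all tested genes), 8 missed the threshold, and the median on the log2 scale was 0.00. TP73, which encodes a p53 relative with the same DNA-binding fold, had 3.38 and 3.27 CPM in the control and 7.66 and 7.15 CPM in the PELP1 shRNA libraries and rose 2.23-fold (FDR = 4.78e-10). TP63, looked at after its values were seen as the other p53 relative, rose 2.05-fold from 2.10 ± 0.49 to 4.35 ± 0.16 CPM (SD, n = 2; FDR = 3.02e-06). HIPK2, a kinase that phosphorylates p53, fell to 53.6% of control (FDR = 5.81e-29). USP7, the deubiquitinase of MDM2 and p53, had 152 and 151 CPM against 84.3 and 86.1 CPM (FDR = 3.65e-25). The count of 5 lower genes became 3 without PELP1 shRNA replicate 1.

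Of 25 other p53 target genes, 21 were tested, and 10 rose, 7 fell and 4 did not pass (81% called against 58.1% of all tested genes, median log2 fold change 0.16 against 0.00). GDF15, a stress-induced ligand, stood at 4.24 and 4.43 CPM against 18.0 and 16.7 CPM (FDR = 1.69e-23), and FAS, a death receptor gene, at 9.71 and 9.17 CPM against 4.28 and 3.92 CPM (FDR = 5.93e-12). PMAIP1, which encodes the BH3-only protein NOXA, had 48.3 and 43.2 CPM in the control and 28.999 and 27.6 CPM in the PELP1 shRNA libraries (FDR = 7.12e-14). Known targets outside the members also lay on both sides of 0.

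Genes of the cell cycle machinery that CDK inhibitors act on moved in both directions. Of 21 genes of CDKs, cyclins, the RB family and E2F, 8 rose, 7 fell and 6 did not pass (71.4% called against 58.1% of all tested genes, median log2 fold change 0.06). Only CCND1, the cyclin D1 gene, was called with a change of at least 1.5-fold in this list, with 704 and 703 CPM in the control and 408 and 406 CPM in the PELP1 shRNA libraries (−0.79 ± 0.03, SE, FDR = 8.94e-30). CCND2, another D-type cyclin gene, fell to 69.9% of control (FDR = 2.13e-09). RBL2, which encodes the pocket protein p130, rose 1.32-fold (FDR = 5.27e-08).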

How the data were processed

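Single-end reads of 50 bp were made from 4 libraries. TopHat2 2.0.8b placed them on hg19 and HTSeq counted them, per the submitters' processing notes. The deposited values are raw counts per gene symbol. For HTSeq, the version, strand handling and annotation were not given in the sources used here. The 5 rows that name no gene held 30.82% and 30.71% (control) and 29.38% and 29.57% (PELP1 shRNA) of each file's total as alignments that were not unique, 8.83% to 9.08% as reads in no gene and 0.58% to 0.60% as ambiguous reads, and were left out.

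Counts were tested with edgeR 4.0.16 and its quasi-likelihood F test (R 4.3.3; TMM scaling, filterByExpr, robust, group as the only term) on all genes, and the scripts were tested on simulated data. P-values were two-sided, with Benjamini-Hochberg adjustment over 14972 genes at a threshold of 0.05. Intervals are the estimate ± 1.96 SE. Replicate pairs differed by more than counting noise (chi-square per degree of freedom 2.469 and 2.374). Alternatives used other scalings and filters, DESeq2 1.42.0, limma-voom (limma 3.58.1), a replicate block, assumed biological variation and leaving out each library.

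Members and lists were chosen with earlier results of these data known. Every member was named. For each pathway list, up to 3 members with the largest change past the threshold and a mean of at least 5 CPM were named. Some results that the rule covers are not reported here. Positions, lengths and overlaps came from GENCODE on GRCh37, which need not be the annotation the authors counted with. Lengths are those of the canonical transcript, and the union of all exons was tried later, with the data in view.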

Additional observations from a re-analysis of the deposited data

How the results depend on the processing

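In the alternatives that assumed no set variation, 10 to 16 members were called higher, against 12, and 8 to 9 lower, against 9. With an assumed biological variation of 10%, 6 rose and 6 fell, and at 20%, 1 rose and 3 fell. Against 1.2-fold and 2-fold changes, 12 and 2 members passed in place of 5. The share of all tested genes that passed was taken for the 1.5-fold change only (9.63%), so these counts have no background. The members' median of 0.11 was 0.20 with library size alone, and the median over all tested genes moved with it, from 0.00 to 0.09. Among the members, a change of sign was seen in MDM4 (0.0112), RRM2B (0.0278) and POLH (0.0484) with library size alone and in POLH (0.0114) with upper-quartile factors, none of them called. Over all genes, 2187 rose and 2176 fell at 10% and 685 rose and 640 fell at 20%, in place of 4276 and 4424. Scaled by library size alone, 5681 rose and 3305 fell. For p53 relatives, kinases and cofactors, 4 rose and 2 fell at 10% and 2 rose and 2 fell at 20%, and 3 fell with DESeq2, with upper-quartile factors and with scaling by library size. Without 1 library, that count of lower genes was 3 to 4. Of the other p53 targets, 5 rose at 10%, and 3 rose and 3 fell at 20%. Of the CDK and cyclin list, 1 rose and 3 fell at 10%, and 0 rose and 0 fell at 20% (edgeR likelihood ratio test; 0 higher and 1 lower at an unadjusted p under 0.05). The cause of these shifts was not tested, beyond the larger variation assumed.

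The replicate numbers are shared by the groups, but nothing in the labels pairs the libraries. Deviations of same-numbered libraries correlated at −0.15 over 11325 genes. With the replicate block 12 members rose and 9 fell, as without it, and 4010 and 4151 genes over the whole table. With crossed numbers, chosen after the data were seen, 13 members rose and 9 fell. CDKN2A and CDKN2B had too few reads for a test, a lack shared by the rows matched around them on chromosome 9.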
